A study of Mus musculus with 16 samples.

Results

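The DNA replication machinery was described through 50 genes, chosen by name from the 49585 gene identifiers listed in 3 tables of comparisons between groups of 2-cell mouse embryos. All 50 were found. They were put in 4 role groups: 9 licensing genes, 14 genes of the replicative helicase and its activation, 10 polymerase and primase genes, and 17 genes of the moving fork and of nucleotide supply. The compared embryos were the knockdown group (6 libraries, zygotes microinjected with double-stranded RNA against Suv39h2), the LacZ control group (6 libraries, injected with double-stranded RNA against the bacterial gene LacZ) and the non-injected group (4 libraries). DBA males fathered all of these embryos on F1 females (C57BL/6J crossed with CBA/H), and KSOM medium was used for culture up to the 2-cell stage. Suv39h2 encodes a methyltransferase of histone H3 that acts in heterochromatin. The design text speaks of pools of 5 embryos per library, and the extraction protocol of a single embryo. For all 16 libraries, the label for treatment names microinjected Suv39h1 messenger RNA, which no other label of these groups mentions. Polyadenylated RNA was sequenced with Smart-seq2, which reads whole transcripts without keeping their strand.

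Before a cell copies its DNA, the origin recognition complex with Cdc6 and Cdt1 loads the ring of Mcm2 to Mcm7 onto DNA, a step called licensing, and geminin (Gmnn) blocks Cdt1 until the next cycle. The kinase Cdc7 with Dbf4, together with cyclin-dependent kinases, then lets Cdc45 and the GINS complex join the ring, which turns it into the active helicase. Polymerase alpha with primase starts each strand, polymerase epsilon extends the leading strand and polymerase delta the lagging strand, held by the clamp Pcna, which the RFC complex loads. In the early mouse embryo the first S phases run largely on proteins and messenger RNAs laid down in the oocyte, while the embryonic genome is being switched on.

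Values for single genes were taken as they stand in the authors' deposited table of each comparison, which DESeq2 produced, and a gene was called at an adjusted p under 0.05. A fold change is knockdown over LacZ control, knockdown over non-injected or LacZ control over non-injected, so a negative value means a lower normalized count in the first-named group. Such counts are relative to the rest of a library, and the total messenger RNA per embryo is not given. The tables give 1 mean normalized count per gene over all libraries and no value of a single library, so the depth of each library, the spread within a group and its overlap with another are unknown. Nothing in the labels says that the libraries of a group came from separate collections, and the p-values measure the spread between these libraries, which may be in part technical. In pooled embryos, fewer cells with a transcript and less of it per cell cannot be told apart.

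Suv39h2, the targeted gene, stood at -1.95 ± 0.28 (standard error) on the log2 scale for knockdown over LacZ control and at -1.79 ± 0.29 for knockdown over non-injected (adjusted p = 4.72e-08 and 2.21e-06, the authors' deposited table). It was not called in LacZ control over non-injected (0.16 ± 0.29, adjusted p = 0.998, the authors' deposited table). The labelled tissue matched its markers: all 9 markers of 2-cell embryos had mean normalized counts from 257 to 2987, and all 8 oocyte markers from 576 to 26588. Counts summed to 57.9 over 10 cumulus and granulosa markers and to 13.6 over 7 sperm markers, with 1 of each listed at 0 (Inhba and Smcp). The 10 genes of the interferon response to double-stranded RNA summed to 42.7, with Ifit3 at 0. DESeq2 called 0 of them, but only 2 (Irf7 and Oasl2) had an adjusted p in each knockdown comparison, and 9 in LacZ control over non-injected. Of the 9 with an unadjusted p, 0 were under 0.05 in any comparison.

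Promoter sequences are shown for 4 members whose messenger RNA was called in at least 1 comparison: Mcm6, a subunit of the helicase ring, and Clspn, the fork protein claspin, both lower in knockdown over non-injected, and the polymerase delta subunits Pold3, higher in knockdown over non-injected, and Pold2, higher in knockdown over LacZ control. Each is a RefSeq window of 300 bases on GRCm38.p6, from 250 bases before the annotated start to 50 after it, written 5′ to 3′ on the gene's strand. Capitals mark matches, on either strand, to the E2F motif spelled TTTGGCGC, TTTCGCGC, TTTCCCGC or TTTGCCGC, or to CCAAT. E2F factors switch on many replication genes before S phase, and CCAAT is bound by the factor NF-Y.
Mcm6, chr1:128359656-128359955, minus strand: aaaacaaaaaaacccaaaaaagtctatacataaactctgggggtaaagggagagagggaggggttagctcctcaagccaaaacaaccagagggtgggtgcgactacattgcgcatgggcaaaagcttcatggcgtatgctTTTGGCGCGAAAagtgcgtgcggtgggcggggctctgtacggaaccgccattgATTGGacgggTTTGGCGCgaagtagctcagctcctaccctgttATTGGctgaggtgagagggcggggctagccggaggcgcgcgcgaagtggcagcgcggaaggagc
Clspn, chr4:126556730-126557029, plus strand: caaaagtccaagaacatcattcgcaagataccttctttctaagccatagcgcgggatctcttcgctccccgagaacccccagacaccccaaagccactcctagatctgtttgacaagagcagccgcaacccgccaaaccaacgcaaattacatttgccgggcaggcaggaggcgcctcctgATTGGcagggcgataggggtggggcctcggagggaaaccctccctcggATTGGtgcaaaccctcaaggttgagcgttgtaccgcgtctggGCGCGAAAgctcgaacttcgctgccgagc
Pold2, chr11:5878207-5878506, minus strand: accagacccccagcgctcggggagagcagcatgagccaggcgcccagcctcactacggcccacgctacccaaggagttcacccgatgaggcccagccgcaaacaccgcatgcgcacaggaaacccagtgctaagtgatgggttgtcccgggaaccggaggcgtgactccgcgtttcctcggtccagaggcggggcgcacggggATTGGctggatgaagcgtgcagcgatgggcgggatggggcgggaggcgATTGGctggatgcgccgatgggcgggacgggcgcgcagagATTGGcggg
Pold3, chr7:100121453-100121752, minus strand: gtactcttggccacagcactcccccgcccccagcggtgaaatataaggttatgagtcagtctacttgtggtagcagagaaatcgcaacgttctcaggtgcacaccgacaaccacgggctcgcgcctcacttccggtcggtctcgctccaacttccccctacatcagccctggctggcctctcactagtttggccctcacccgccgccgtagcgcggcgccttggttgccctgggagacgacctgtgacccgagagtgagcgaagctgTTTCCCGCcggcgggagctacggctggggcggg

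The Mcm6 window holds 3 E2F matches, a pair of which overlap, and 2 CCAAT matches. The Clspn window holds 1 E2F and 2 CCAAT matches, the window shown for Pold2 holds 3 CCAAT matches and no E2F match, and that of Pold3 holds 1 E2F match. A second RefSeq window of Pold2, chr11:5877614-5877913, holds 0 matches to either motif. RefSeq windows matched 41 of the 50 members, with 50 windows in all. Prim2, called in both knockdown comparisons, and Pole had no window, so they are missing from these counts. An E2F match lay in 16 of those 50 windows (32.0%), against 744 of the 32851 windows of all genes (2.26%). CCAAT lay in 26 of the members' windows (52.0%), against 37.4% of all windows. Of the members called lower in knockdown over non-injected, 8 had a window, and 4 of these genes had an E2F match (Gins3, Mcm3, Mcm6 and Clspn). Cdc45, Cdc7, Prim1 and Rrm1 had none. By gene, 16 of the 41 members with a window had an E2F match, against 704 of 27025 genes in all. The 4 of 8 are therefore not read as a trait of the lower genes. Of the members called higher, Pold3 had an E2F match and Rfc5 did not. These matches are letters in a window and not measured binding sites.

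Transcript levels of the machinery covered a wide range. Per kilobase of exon, the mean normalized count over all libraries ran from 3.43 for Pold1, the catalytic subunit of polymerase delta, to 2181 for geminin, the inhibitor of licensing, with a median of 120 (n = 50). After geminin the highest levels per kilobase were those of Orc6 (1036), Rrm2, the small subunit of ribonucleotide reductase (959), Tipin, a fork protection protein (939), and Dbf4, the activator of the kinase Cdc7 (571). The lowest after Pold1 were Orc3 (7.11), the clamp loader subunit Rfc3, and Pole, the catalytic subunit of polymerase epsilon (13.2).

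Genes for subunits of the same complex did not share a level. In the origin recognition complex Orc6 stood at 1036 and Orc3 at 7.11 counts per kilobase. In polymerase delta Pold3 stood at 518, Pold2 at 47.4 and Pold1 at 3.43 counts per kilobase. Dbf4 stood at 571 and its kinase partner Cdc7 at 31.8 counts per kilobase. The ring subunits were closer together, from 117 for Mcm5 to 317 for Mcm6 counts per kilobase. By role group the median level per kilobase was 252 for licensing, 127 for the helicase, 47.3 for polymerases and 83.5 for the fork. Exon length here joins the exons of all annotated transcripts, so genes with many isoforms get a lower value.

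**Figure D1:**
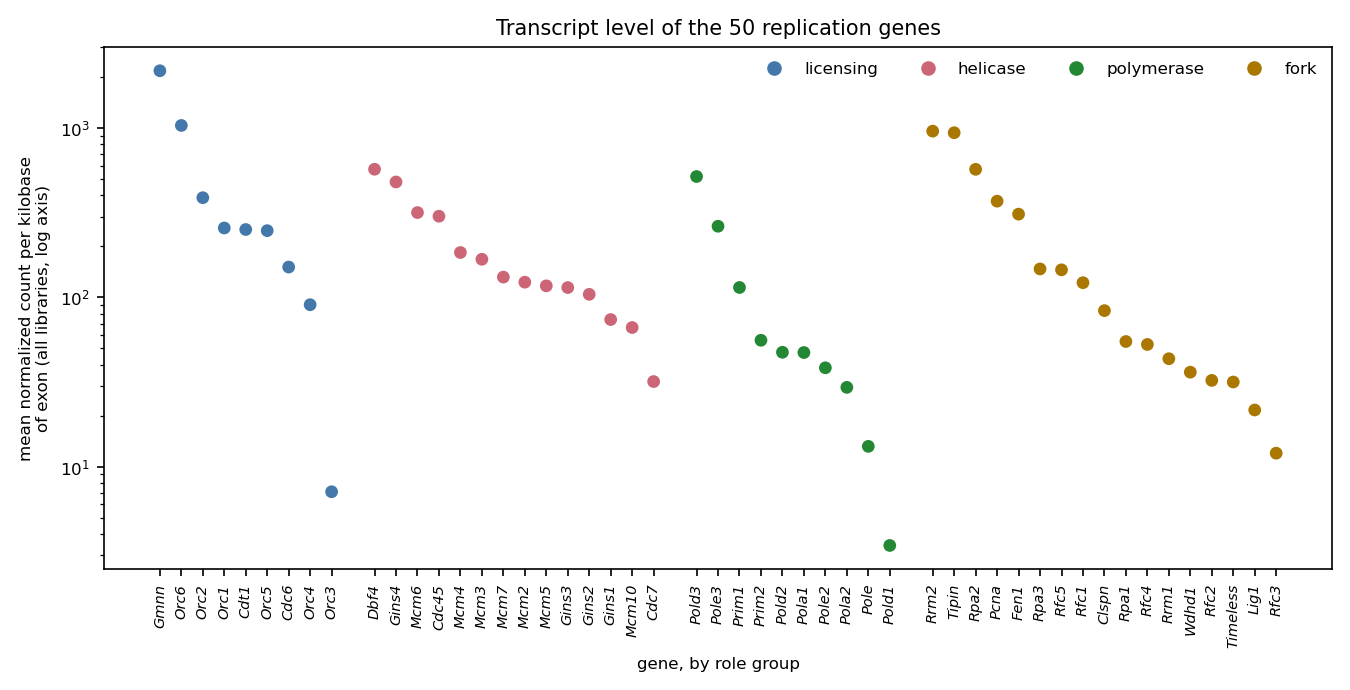
Mean normalized count per kilobase of exon over all libraries (log axis) for each of the 50 genes, by role group; each point is 1 gene, and there is no error bar because the tables hold no value of a single library. Geminin (Gmnn, 2181) and Pold1 (3.43) mark the ends of the range.

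Knockdown was first set against LacZ control, which asks what less Suv39h2 goes with once injection and double-stranded RNA are shared. Prim2, the large subunit of primase, fell, and Pold2, the accessory subunit of polymerase delta, rose, while no other member passed the test. That is 1 of 50 members lower and 1 higher, or 2% in each direction, against 0.533% of the 15572 genes tested called lower and 0.366% called higher (0.899% in either direction). With 1 gene in each direction, these shares rest on single calls. With p unadjusted and under 0.05, 7 members were lower and 4 higher, against 8.07% and 6.6% of all genes tested. Of the 44 members with a mean count of 100 or more, 7 were lower and 3 higher. Of the 7722 genes tested with such counts, 1067 were lower and 435 higher, so the lower share of the members was near that background.

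Prim2 stood at -0.78 ± 0.21 for knockdown over LacZ control, a 1.72-fold difference (adjusted p = 0.0410, 95% interval -1.20 to -0.36, the authors' deposited table). Prim1, the catalytic primase subunit that makes the RNA primer, stood at -0.56 ± 0.25 and was not called (adjusted p = 0.259, the authors' deposited table). The other subunits of the same complex were split, with Pola1, the polymerase, at -0.32 ± 0.20 and Pola2 at 0.28 ± 0.24, neither called (the authors' deposited table). Pold2 stood at 1.04 ± 0.26, a 2.05-fold difference (adjusted p = 0.0225, 95% interval 0.53 to 1.55, the authors' deposited table). Its mean normalized count was 89.9. All 3 polymerase delta genes had positive fold changes, with Pold3 at 0.37 ± 0.17 and Pold1 at 0.62 ± 0.40, neither called (the authors' deposited table). Pold1 had a mean count of 16.6, the lowest of the members. Prim2 was no longer called when p was adjusted over every deposited p-value. When p was adjusted over genes with a mean count of 100 or more, Pold2 was not among them and Rpa1 was called higher.

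Among the other members of this comparison the smallest adjusted p were those of Rpa1 and Clspn. Rpa1, the large subunit of the protein that coats single-stranded DNA, stood at 0.79 ± 0.24 (adjusted p = 0.0606), and Clspn, which links stalled forks to the checkpoint kinase Chek1, at -0.60 ± 0.20 (adjusted p = 0.104, the authors' deposited table). The other RPA subunits did not share the value of Rpa1, with Rpa2 at -0.29 ± 0.19 and Rpa3 at -0.07 ± 0.28 (the authors' deposited table). Timeless, a fork protection protein, stood at 0.57 ± 0.27 and its partner Tipin at -0.30 ± 0.20, neither called (the authors' deposited table).

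No licensing or helicase gene was called in knockdown over LacZ control, where 0.899% of all genes tested were called. A fold change below 0 was found for 8 of 9 and 13 of 14. Among all genes tested the share was 48.4%, and 58.3% among those with a mean count of 100 or more. The group medians were -0.23 for licensing and -0.19 for the helicase, against 0.02 for all genes tested and -0.08 for the 7722 genes tested with a mean count of 100 or more. At an unadjusted p under 0.05, DESeq2 gave 2 licensing genes lower (Gmnn and Orc1), 2 helicase genes lower (Cdc45 and Dbf4) and 0 higher. Of the 7722 genes with the higher counts, 1067 were lower and 435 higher at that p. Geminin stood at -0.60 ± 0.25 (adjusted p = 0.239), Orc3 at -0.61 ± 0.33 and Cdc45 at -0.48 ± 0.19 (the authors' deposited table). At the other end of these groups were Orc5 at 0.17 ± 0.19 and Mcm2 at 0.02 ± 0.24 (the authors' deposited table). Fork genes had a median of -0.16, with 12 of 17 below 0. Polymerase genes had a median of 0.28, with 4 of 10 below 0.

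**Figure D2:**
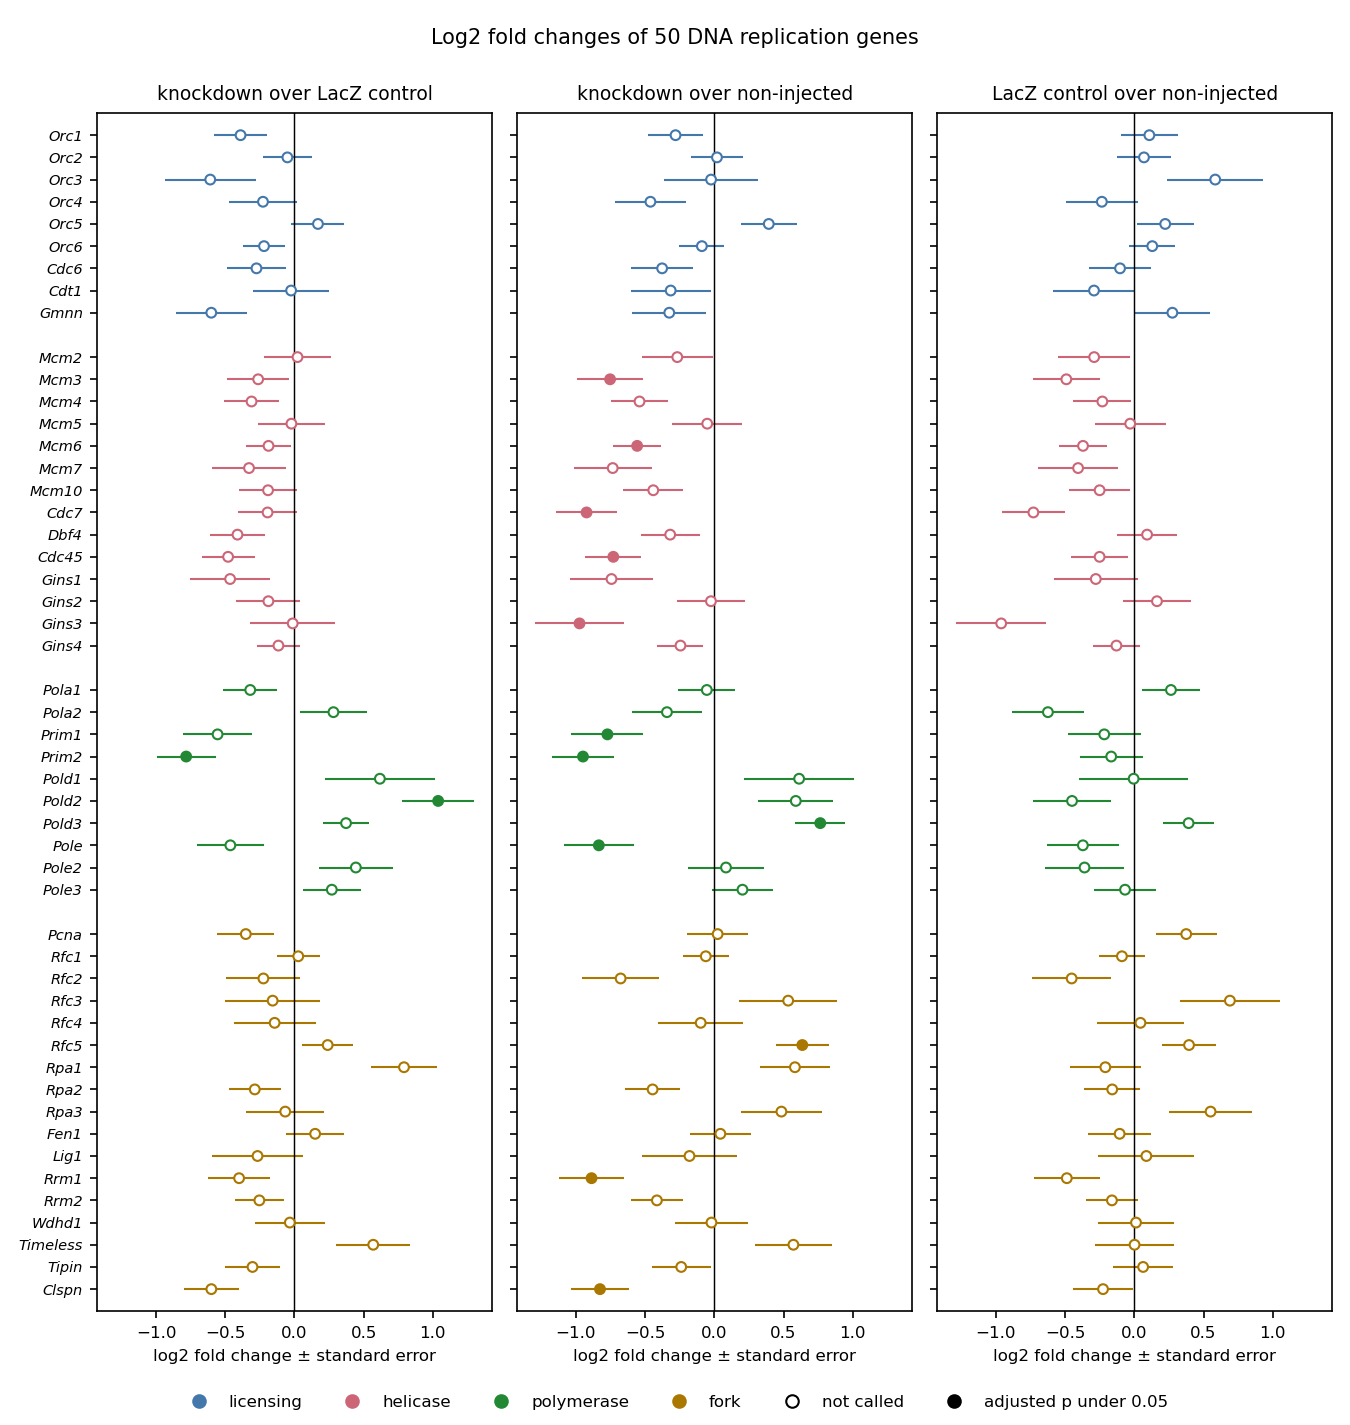
Log2 fold change with its standard error for each of the 50 genes (rows, coloured by role group) in the 3 comparisons; filled points have an adjusted p under 0.05. Prim2 (lower) and Pold2 (higher) are filled in knockdown over LacZ control, 12 genes are filled in knockdown over non-injected, and 0 in LacZ control over non-injected.

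Knockdown was next set against non-injected embryos, a comparison in which the groups differ by injection and double-stranded RNA as well as by Suv39h2. Here 10 of 50 members were lower (20%) and 2 were higher (4%), against 7.76% of the 14948 genes tested called lower and 7.41% called higher (15.2% in either direction). With p unadjusted and under 0.05, 17 members were lower and 5 higher, against 14.4% and 14.6% of all genes tested. Most members were well expressed: 44 of 50 had a mean count of 100 or more, and all 12 called members were among these. Of those 44, 22.7% were lower and 4.55% higher, against 13.5% and 9.01% of the 7722 genes with such counts. The median fold change of the members was -0.26, against 0.05 for all genes tested and -0.08 for those with a mean count of 100 or more.

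The helicase group held 5 of the 10 lower genes and none higher, and all 14 of its fold changes were below 0, with a median of -0.55. Called lower were 35.7% of its genes, against 7.76% of all genes tested and 13.5% of those with a mean count of 100 or more. Fold changes below 0 made up 46.8% of all genes tested and 55.3% of those with such counts. Gins3, a GINS subunit, fell by 0.97 ± 0.32, a 1.97-fold difference (adjusted p = 0.0226, the authors' deposited table). Cdc7, the kinase that fires licensed origins, fell by 0.92 ± 0.22, a 1.90-fold difference (adjusted p = 0.00162, the authors' deposited table). Mcm3 fell by 0.75 ± 0.24 and Mcm6 by 0.56 ± 0.17 (adjusted p = 0.0169 and 0.0146, the authors' deposited table). Cdc45, which joins the ring to GINS, fell by 0.73 ± 0.20 (adjusted p = 0.00760, the authors' deposited table).

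Within the ring all 6 fold changes were below 0, with 2 called. Of all genes tested with a mean count of 100 or more, 55.3% were below 0 and 13.5% were called lower. Mcm7 at -0.73 ± 0.28 and Mcm4 at -0.54 ± 0.21 did not pass the threshold (adjusted p = 0.0637 and 0.0542, the authors' deposited table). Mcm2 stood at -0.27 ± 0.26 and Mcm5 at -0.05 ± 0.25 (the authors' deposited table), and the 95% interval of Mcm5 ran from -0.55 to 0.44. In GINS, Gins1 stood at -0.74 ± 0.30 (adjusted p = 0.0621), Gins4 at -0.25 ± 0.17 and Gins2 at -0.02 ± 0.24 (the authors' deposited table). Dbf4, the partner of Cdc7, stood at -0.32 ± 0.21 and Mcm10, which helps to activate the helicase, at -0.44 ± 0.22, neither called (the authors' deposited table). Differences between subunits were not tested.

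Of the 10 polymerase genes 3 were lower (30%) and 1 higher (10%). The matching shares were 7.76% and 7.41% for all genes tested, and 13.5% and 9.01% for those with a mean count of 100 or more. The priming complex and polymerase delta had fold changes of opposite sign, but of them only Prim1, Prim2 and Pold3 were called. The signs did not hold for every subunit in the other comparisons. Pola2 stood at 0.28 ± 0.24 in knockdown over LacZ control. Pold2 stood at -0.45 ± 0.28 in LacZ control over non-injected, and neither was called (the authors' deposited table). Prim2 fell by 0.95 ± 0.22, a 1.93-fold difference, and Prim1 by 0.77 ± 0.26 (adjusted p = 0.00142 and 0.0282, the authors' deposited table). Prim1 was no longer called when p was adjusted over every deposited p-value. Pola2 at -0.34 ± 0.25 and Pola1 at -0.05 ± 0.21 were not called (the authors' deposited table). Pole, the leading strand polymerase, fell by 0.83 ± 0.25 (adjusted p = 0.0149, the authors' deposited table), whereas the smaller subunits Pole2 and Pole3 stood at 0.08 ± 0.28 and 0.20 ± 0.22 and were not called. Pold3, the subunit of polymerase delta that binds Pcna, rose by 0.76 ± 0.18, a 1.70-fold difference (adjusted p = 0.00105, the authors' deposited table). Pold1 at 0.61 ± 0.39 and Pold2 at 0.59 ± 0.27 were not called (the authors' deposited table).

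Of the 17 fork genes 2 were lower (11.8%) and 1 higher (5.88%). These shares were near those of all genes tested (7.76% and 7.41%) and of genes with a mean count of 100 or more (13.5% and 9.01%). Rrm1, the large subunit of ribonucleotide reductase, fell by 0.89 ± 0.23 (adjusted p = 0.00508, the authors' deposited table). Its partner Rrm2 stood at -0.42 ± 0.19 and was not called (adjusted p = 0.115, the authors' deposited table). Clspn fell by 0.83 ± 0.21 (adjusted p = 0.00341, the authors' deposited table). Rfc5, a clamp loader subunit, rose by 0.64 ± 0.19 (adjusted p = 0.0133, the authors' deposited table), while the other 4 RFC genes ran from -0.68 ± 0.28 for Rfc2 to 0.53 ± 0.36 for Rfc3 and were not called. Pcna, the sliding clamp, stood at 0.02 ± 0.22 with a 95% interval of -0.40 to 0.45, and the flap nuclease Fen1 at 0.04 ± 0.22 (the authors' deposited table). The DNA ligase Lig1 stood at -0.18 ± 0.34 and Wdhd1, which ties polymerase alpha to the helicase, at -0.02 ± 0.27, neither called (the authors' deposited table). Rpa1 stood at 0.58 ± 0.25 and Timeless at 0.57 ± 0.28, both above 0 but not called (adjusted p = 0.0962 and 0.152, the authors' deposited table).

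No licensing gene was called in knockdown over non-injected, and DESeq2 gave 0 of 9 at an unadjusted p under 0.05. Over all genes tested 15.2% were called, and 14.4% were lower and 14.6% higher at that unadjusted p. With only 9 genes, the counts of 0 are not read as a trait of the group. Their fold changes ran from -0.46 ± 0.26 for Orc4 to 0.39 ± 0.20 for Orc5 (the authors' deposited table), with a median of -0.28. Cdc6 stood at -0.38 ± 0.22, Gmnn at -0.33 ± 0.27 and Cdt1 at -0.32 ± 0.29 (the authors' deposited table). Whether licensing genes differed less than helicase genes was not tested.

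**Figure D3:**
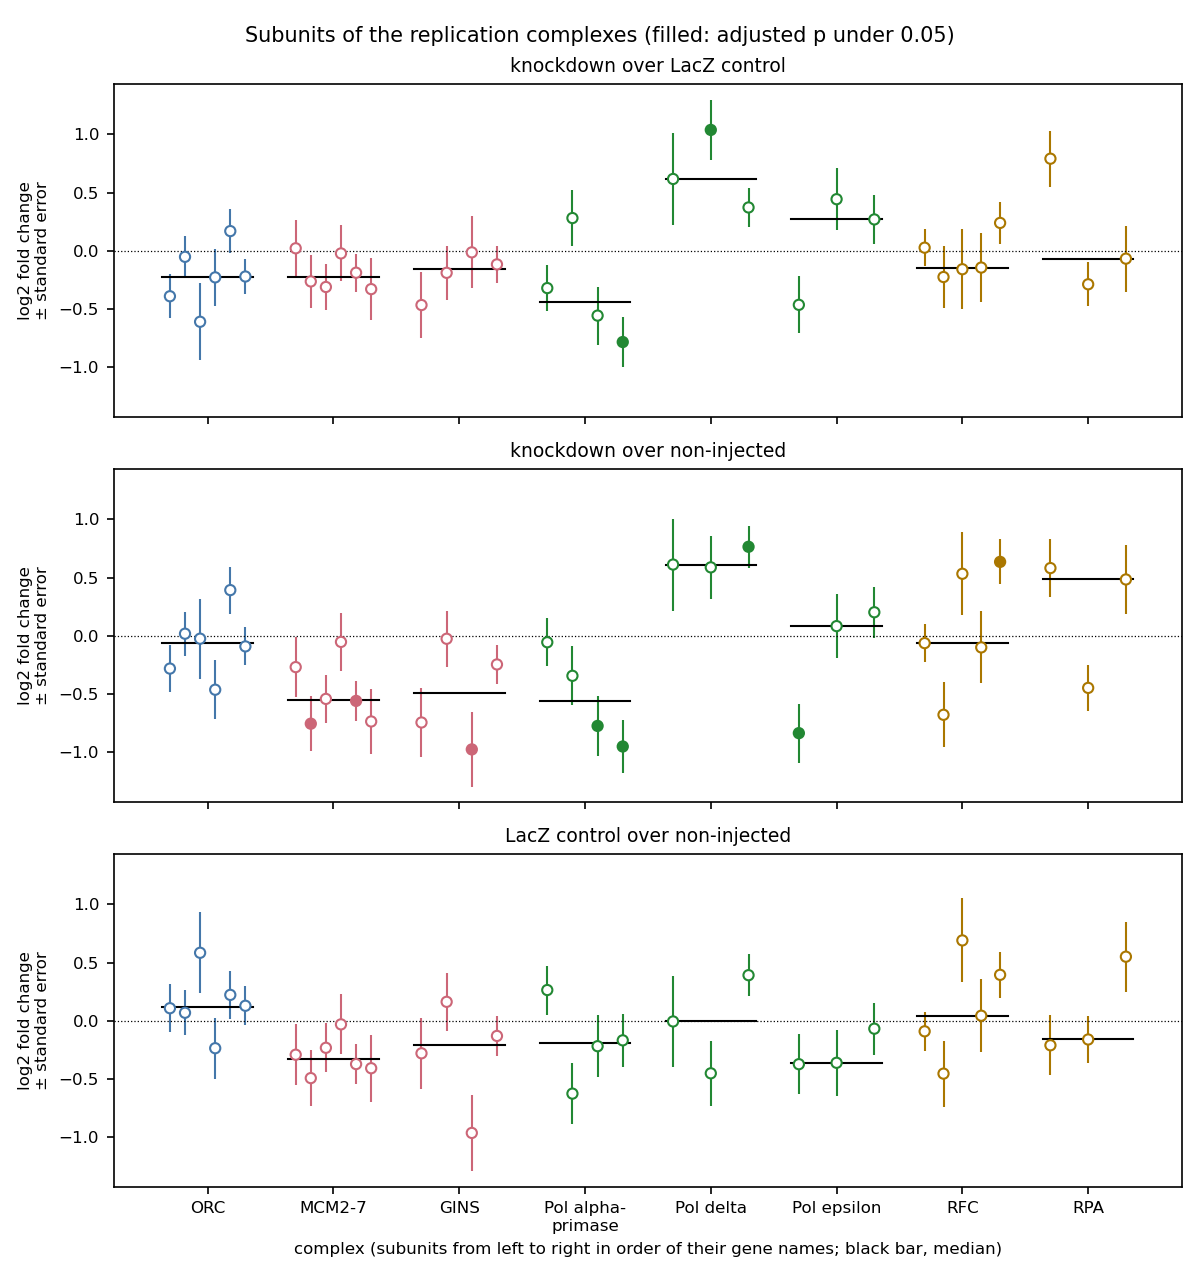
Log2 fold change with its standard error for the subunits of 8 replication complexes in the 3 comparisons (black bar, median of the complex; filled points, adjusted p under 0.05). In knockdown over non-injected all 4 genes of polymerase alpha with primase lie below 0 and all 3 of polymerase delta above it, with medians of -0.56 and 0.61. Of these genes only Prim1, Prim2 and Pold3 were called.

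Markers of the 2-cell stage and of the oocyte also differed in this comparison. In knockdown over non-injected, 5 of 9 markers of 2-cell embryos and 4 of 8 oocyte markers were higher and none lower, with medians of 0.83 and 0.58. In LacZ control over non-injected 2 and 0 were higher, with medians of 0.69 and 0.41, and in knockdown over LacZ control 0 of either list were called, with medians of -0.06 and 0.16. Of all genes tested with a mean count of 100 or more, 9.01% were called higher in knockdown over non-injected. For LacZ control over non-injected that share was 0.764%, and in knockdown over LacZ control 1.20% were called in either direction. The part of the markers in the values of the replication genes was not tested.

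LacZ control was last set against non-injected embryos, which gives the difference that goes with injection of double-stranded RNA without a mouse target. DESeq2 called 0 of 50 members, against 0.263% of the 29288 genes tested called lower and 0.529% called higher (0.792% in either direction). With p unadjusted and under 0.05, 6 members were lower and 2 higher, against 2.96% and 4.43% of all genes tested. The genes tested here had a median mean count of 10.6, far below that of the members (560). Of the 44 members with a mean count of 100 or more, 6 were lower and 2 higher, against 465 and 667 of the 7722 genes with such counts. The lower ones were Gins3 (-0.96 ± 0.33, adjusted p = 0.209), Cdc7 (-0.73 ± 0.23, adjusted p = 0.117), Pola2 (-0.62 ± 0.26), Mcm3 (-0.49 ± 0.24), Rrm1 (-0.49 ± 0.24) and Mcm6 (-0.37 ± 0.18) in the authors' deposited table. The higher ones were Rfc5 (0.40 ± 0.20) and Pold3 (0.39 ± 0.18) in the authors' deposited table. By role group the medians were 0.11 for licensing, -0.26 for the helicase, -0.19 for polymerases and 0.00 for the fork, against 0.00 for all genes tested. Licensing fold changes ran from -0.29 ± 0.30 for Cdt1 to 0.58 ± 0.35 for Orc3, none called, and the highest value was 0.69 ± 0.36 among fork genes (Rfc3) and 0.16 ± 0.25 among helicase genes (Gins2), neither called (the authors' deposited table).

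On the log2 scale the 2 other comparisons add up to knockdown over non-injected for each gene, to within 4.16e-08, so the called genes can be read by their parts. The 3 comparisons share libraries, and the parts are not independent of the sum. For Gins3 the parts were -0.01 ± 0.31 for knockdown over LacZ control and -0.96 ± 0.33 for LacZ control over non-injected, and for Cdc7 they were -0.19 ± 0.22 and -0.73 ± 0.23 in the same order (the authors' deposited table). Here the larger part lay between LacZ control and non-injected embryos. For Prim2 they were -0.78 ± 0.21 and -0.17 ± 0.23, for Prim1 -0.56 ± 0.25 and -0.22 ± 0.27, and for Clspn -0.60 ± 0.20 and -0.23 ± 0.21 (the authors' deposited table). In these genes the larger part lay between the injected groups. Whether the parts of a gene differ was not tested.

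The other genes called in knockdown over non-injected also had parts of the same sign on both sides, as had those above. No rule set them apart from those. For Rrm1 they were -0.40 ± 0.22 for knockdown over LacZ control and -0.49 ± 0.24 for LacZ control over non-injected, for Pole -0.46 ± 0.24 and -0.37 ± 0.26, and for Pold3 0.37 ± 0.17 and 0.39 ± 0.18 (the authors' deposited table). In the same order they were -0.48 ± 0.19 and -0.25 ± 0.21 for Cdc45, -0.26 ± 0.22 and -0.49 ± 0.24 for Mcm3, -0.19 ± 0.16 and -0.37 ± 0.18 for Mcm6, and 0.24 ± 0.18 and 0.40 ± 0.20 for Rfc5 (the authors' deposited table). Pold2 had parts of opposite sign, 1.04 ± 0.26 and -0.45 ± 0.28 (the authors' deposited table), and was called in knockdown over LacZ control alone. Geminin also had parts of opposite sign, -0.60 ± 0.25 and 0.27 ± 0.27, and so had Pcna, -0.35 ± 0.21 and 0.37 ± 0.22, none of these called (the authors' deposited table).

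**Figure D4:**
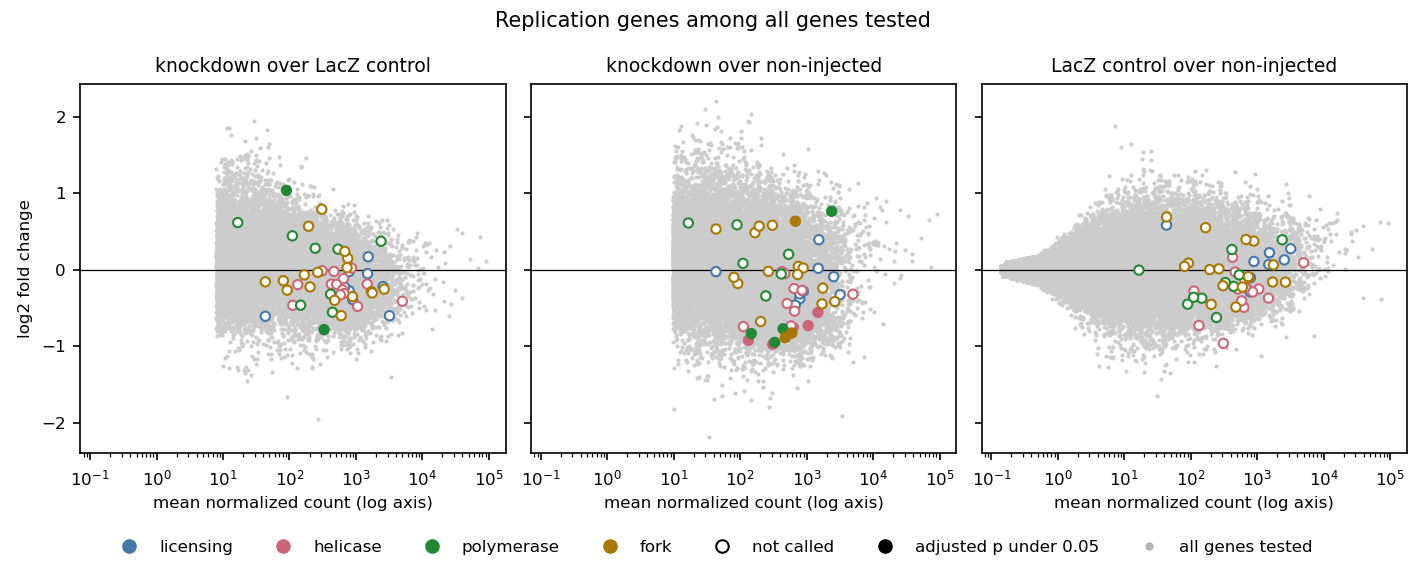
Log2 fold change against mean normalized count (log axis) of all genes tested (grey) and of the 50 replication genes (coloured by role group, filled where the adjusted p is under 0.05) in the 3 comparisons. The called genes of knockdown over non-injected lie between mean counts of 133 (Cdc7) and 2381 (Pold3).

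A further 75 genes around the machinery were counted for the same comparisons: firing and licensing control, fork, lagging strand and chromatin factors, nucleotide supply, checkpoint kinases and clamps, and the E2F and retinoblastoma families. In knockdown over non-injected 8 of the 73 with an adjusted p were lower and 1 higher, against 7.76% and 7.41% of all genes tested and 13.5% and 9.01% of those with a mean count of 100 or more. The lower share was near these backgrounds, and the genes are named as values only. The lower ones were Chtf18, part of an alternative clamp loader (-1.10 ± 0.33), Top2a, the topoisomerase that untangles copied DNA (-0.88 ± 0.22), Skp2, a ubiquitin ligase subunit (-0.78 ± 0.23), and the nuclease Dna2 (-0.77 ± 0.22) in the authors' deposited table. The others were the fork repair gene Mms22l (-0.73 ± 0.17), the ubiquitin ligase Traip (-0.72 ± 0.20), Rif1, a regulator of replication timing (-0.67 ± 0.20), and the clamp unloader Atad5 (-0.63 ± 0.22) in the authors' deposited table. Tfdp1, which pairs with E2F factors, rose by 0.62 ± 0.19 (adjusted p = 0.0161, the authors' deposited table). DESeq2 called 0 of these genes in knockdown over LacZ control (with p unadjusted and under 0.05, 11 lower and 2 higher), where 0.533% of all genes tested were called lower and 0.366% higher (8.07% and 6.6% with p unadjusted). It also called 0 in LacZ control over non-injected (3 lower and 2 higher with p unadjusted). There the shares of all genes were 0.263% and 0.529% (2.96% and 4.43% with p unadjusted). Of the 7722 genes with a mean count of 100 or more, 1067 were lower and 435 higher with p unadjusted in knockdown over LacZ control. In LacZ control over non-injected they were 465 and 667.

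Positions on GRCm38 are those of GENCODE vM21, which annotates the members as protein-coding. Prim2 lies on chromosome 1 from 33453810 to 33669795 and Pold2 on chromosome 11 from 5872180 to 5878292, both on the minus strand. Mcm3 lies on chromosome 1 from 20802968 to 20820312 on the minus strand, and Gins3 on chromosome 8 from 95633453 to 95645060 on the plus strand. Exons of 15 members overlap exons on the opposite strand, and without strand such reads cannot be assigned. Those of 4 members overlap exons on their own strand, where knowing the strand would not separate the reads. Of the 13 members called in any comparison, overlaps concern Cdc45 (with Ufd1), Pole (with Gm15792) and Rfc5 (with Wsb2), which are uncertain for that reason. The same holds for Rpa1 (with Gm47300 on its own strand), which was called higher only under alternative settings. GENCODE also lists the pseudogene Pcna-ps2, with a mean count of 36.7, so reads of Pcna could be split. The 32 members without any overlap had a median of -0.32 in knockdown over non-injected, with 8 lower and 1 higher. The 18 members with an overlap had a median of -0.06, with 2 lower and 1 higher, and the difference was not tested. The 10 members with a protein-coding neighbour in head-to-head position within 1000 bases included Pole, whose start lies 120 bases from that of Pxmp2. The longest exact stretch that a member's annotated transcripts share with those of Suv39h2, on either strand, ran from 11 to 20 bases and was 15 bases for Prim2. The sequence of the injected RNA was not analysed here, and a part of such stretches in the results was not tested.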

How the data were processed

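RNA of 16 libraries of 2-cell embryos was sequenced (6 knockdown, 6 LacZ control, 4 non-injected), grouped by the label of what was injected. Reads were handled with STAR 2.5.2b, SAMtools, HTSeq 0.9.1 and DESeq2 1.18.1 on GRCm38.p5, per the submitters' processing notes. The names of the deposited tables alone mention RUVseq, a correction for unwanted variation, and shrinkage of fold changes. The columns, per the file headers, are the mean normalized count (a signal), log2 fold change and standard error, test statistic (a score), p-value and adjusted p-value. The tables hold 0 columns of single libraries, so depth is unknown, and no refit, batch check or leaving out of a library could be made. Shrinkage pulls the fold changes of weakly expressed genes towards 0. Tests are the authors' own.

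Identifiers were matched to symbols without their version (49326 of 49585). The 3 tables share 1 normalization: mean counts differ by at most 4.87e-06. Benjamini-Hochberg adjustment over the genes with a deposited adjusted p gave those values back to within 1.84e-05, and the script was tested on simulated data. Intervals of 95% are the fold change plus or minus the normal quantile times the standard error, for 1 gene at a time. They lie around fold changes that are shrunken by the names given, so they may not cover at 95%. The deposited test statistic is not exactly the fold change divided by its standard error, so a p-value and the interval beside it may not match. Members, role groups and lists were chosen with earlier results of these data known. Named with values were called members, those with the largest and smallest fold change of each role group and comparison, those with the highest and lowest level, subunits of complexes with a called subunit, and called genes of the wider list. Orc1, Tipin, Timeless and other members beyond that rule were chosen after their values were seen. Repeat tables were not used here. Python 3.11.15, pandas 2.3.3, scipy 1.17.1 and matplotlib 3.10.9 were used.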

Additional observations from a re-analysis of the deposited data

How the results depend on the processing

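The counts of called members and the medians were recomputed under 57 alternatives, and 50 stayed within the bounds set for them: a factor of 1.5 for a count, the same sign and a shift under 0.1 on the log2 scale for a median. That holds for all 15 alternatives of the medians. DESeq2's count of 0 for LacZ control over non-injected was 0 under each of its alternatives. The bound of 0.1 is wide beside the members' medians, so staying within it says little about their size. An alternative subtracted the median of all genes with a mean count of 100 or more. With it the members' median went from -0.193 to -0.116 in knockdown over LacZ control. In knockdown over non-injected the median went from -0.257 to -0.172. In LacZ control over non-injected the median stayed at -0.118. Some alternatives could not differ, so the 50 overstate how stable the results are. All 50 members had a mean count of 10 or more, so medians over such members repeated the main values. A count of 0 could not move at a stricter threshold, with a fold change minimum or in a subset of members. In knockdown over LacZ control the count of lower members went to 0 with adjustment over every deposited p-value and to 0 at an adjusted p under 0.01, so the call of Prim2 ended there. The count of higher members was 0 at an adjusted p under 0.01 and 2 (Pold2 and Rpa1) under 0.1. With adjustment over genes of a mean count of 100 or more it stayed at 1, but the gene was Rpa1, because Pold2 has a lower mean count and was not tested. In knockdown over non-injected the lower members were 5 at an adjusted p under 0.01 (Cdc45, Cdc7, Clspn, Prim2 and Rrm1), 9 with adjustment over every deposited p-value (without Prim1), and 13 with adjustment over genes of a mean count of 100 or more. The higher members were 1 (Pold3) at an adjusted p under 0.01, and 1 among members without an exon overlap. No paired analysis was possible because the tables hold no values of single libraries, and for the same reason leaving out each library in turn was not run.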
